A study of Mus musculus with 10 samples.

Results

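Most of the 9 genes described here make glucose from smaller molecules in the liver or break it down there. Others move it across the hepatocyte membrane or store it as glycogen, and Gckr and Ppargc1a take part in control. The 9 genes were found by symbol, as Pck1, G6pc, Fbp1, Pcx, Ppargc1a, Gckr, Pklr, Slc2a2 and Gys2. They were picked with earlier results of these data known. All 9 were found among the 55421 gene identifiers of the table, and all 9 passed the filter on low counts, which asked for at least 10 counts summed over the 10 livers.

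RNA was taken from whole livers of 10 male mice, 3 weeks after a virus injection at 6 months of age, and poly(A) RNA was sequenced. The H3.3 KO group held 4 mice with floxed alleles of H3f3a and H3f3b, the genes of the histone variant H3.3, that received Cre recombinase on AAV8, a virus that reaches the liver. The WT Cre controls were 3 wild-type mice with the same AAV8 Tbg-Cre virus. The MCS controls were 3 mice with the same floxed alleles given a Tbg-MCS vector, which carries no Cre. All 10 mice therefore carried an AAV8 vector with the Tbg promoter, which drives expression in hepatocytes, so that other liver cells kept their H3.3 genes. The genotype entry of the labels reads HIRA fl/fl for the floxed mice, whereas the titles name H3f3a and H3f3b, and the groups follow the titles. Food was freely available per the methods of the study, whereas a fast before collection and the hour of collection were not given in the sources used here.

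In the fasted state the liver rebuilds glucose from lactate, amino acids and glycerol. Pyruvate carboxylase (Pcx), phosphoenolpyruvate carboxykinase (Pck1), fructose-1,6-bisphosphatase (Fbp1) and the catalytic subunit of glucose-6-phosphatase (G6pc) carry out the steps that go around the irreversible reactions of glycolysis. The transporter GLUT2 (Slc2a2) lets glucose cross the hepatocyte membrane in either direction. In the fed state the regulatory protein Gckr takes part in the control of glucose uptake into metabolism, liver pyruvate kinase (Pklr) closes glycolysis, and liver glycogen synthase (Gys2) stores the surplus. PGC-1 alpha (Ppargc1a) is a coactivator that is induced by glucagon and cAMP and acts on the gluconeogenic promoters.

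Promoter sequence was at hand for 8 of the 9 genes, and Gys2 had none. The windows below run from 250 bases before the annotated start to 50 bases after it (RefSeq, build GRCm38.p6) and are written 5′ to 3′ on the strand of the gene. They show the starts of 3 genes that were lower in KO, of which Pck1 and G6pc act in glucose production and Pklr in its breakdown, Pck1 (chr2:173152823-173153122, plus strand), G6pc (chr11:101367466-101367765, plus strand) and the downstream start of Pklr (chr3:89136373-89136672, plus strand), beside that of Fbp1 (chr13:62888233-62888532, minus strand), which did not pass the test. Capitals mark matches on either strand to the letter strings searched.
Pck1: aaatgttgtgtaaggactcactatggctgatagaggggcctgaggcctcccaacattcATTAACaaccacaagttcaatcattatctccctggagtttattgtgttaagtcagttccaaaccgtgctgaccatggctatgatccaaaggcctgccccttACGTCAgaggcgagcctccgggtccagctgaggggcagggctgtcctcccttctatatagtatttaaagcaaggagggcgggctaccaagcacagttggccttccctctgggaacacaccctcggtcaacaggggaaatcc
G6pc: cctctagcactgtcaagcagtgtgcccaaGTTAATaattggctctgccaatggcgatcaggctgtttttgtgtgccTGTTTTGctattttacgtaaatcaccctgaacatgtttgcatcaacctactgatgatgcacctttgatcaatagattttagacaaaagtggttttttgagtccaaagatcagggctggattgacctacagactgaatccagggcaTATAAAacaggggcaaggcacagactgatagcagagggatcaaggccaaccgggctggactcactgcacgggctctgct
Pklr: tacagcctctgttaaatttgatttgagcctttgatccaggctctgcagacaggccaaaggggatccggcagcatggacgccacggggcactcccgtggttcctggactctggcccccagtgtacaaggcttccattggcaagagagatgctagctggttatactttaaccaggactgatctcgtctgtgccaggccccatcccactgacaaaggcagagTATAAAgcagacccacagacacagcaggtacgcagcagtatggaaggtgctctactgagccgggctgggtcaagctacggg
Fbp1: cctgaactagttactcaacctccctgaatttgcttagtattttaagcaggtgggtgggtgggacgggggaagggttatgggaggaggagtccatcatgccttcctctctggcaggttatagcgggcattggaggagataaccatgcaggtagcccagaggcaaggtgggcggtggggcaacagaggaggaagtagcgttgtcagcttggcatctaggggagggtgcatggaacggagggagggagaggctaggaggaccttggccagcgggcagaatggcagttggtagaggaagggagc

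The core of a cAMP response element was searched as ACGTCA, the forkhead site as TGTTTAC, the insulin response unit as TGTTTTG and the E-box as CACGTG. Part of an HNF1 site was searched as GTTAAT, part of an HNF4 site as CAAAGTC and the TATA box as TATAAA. In Pck1, ACGTCA began 91 bases before the start and GTTAAT, on the opposite strand, 192 bases before it. In G6pc, GTTAAT began 221 bases before the start, while TGTTTTG began 174 bases and TATAAA 29 bases before it. In Pklr only TATAAA was found, 31 bases before the start, and Fbp1 held none of the strings. Of the members not printed, Ppargc1a held ACGTCA 50 bases before its start, Gckr held TGTTTTG at 83 bases and GTTAAT at 59 bases, and Pcx held CACGTG at 248 bases before the upstream of its starts. No match shared bases with another. Over all 32851 windows of the table, ACGTCA was present in 7.51%, TGTTTAC in 3.65%, TGTTTTG in 6.28%, CACGTG in 7.15%, GTTAAT in 7.10%, CAAAGTC in 4.44% and TATAAA in 13.6%. A match is a run of letters and was not tested as a binding site.

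The libraries held 14998426 to 26096141 counts, and H3.3 KO liver 1 had the lowest total. H3f3a fell to 28.1% and H3f3b to 31.6% of their control means in the KO livers, with log2 fold changes of -1.83 and -1.66 (edgeR adjusted p of 3.5e-08 and 3.62e-06), whereas Hira had a log2 fold change of -0.14 (adjusted p = 0.477). Of 22449 genes tested between KO and all 6 controls, 36.3% passed an adjusted p under 0.05, 16.6% as lower and 19.7% as higher. Of 9 hepatocyte markers tested, 4 were lower and 5 did not pass, and their summed level was 86115 to 99749 CPM in KO against 109128 to 161625 CPM in the controls (CPM, counts scaled to a common library size). All 10 markers of Kupffer cells and macrophages were higher, summing to 531 to 1172 CPM against 229 to 431 CPM, as were 8 of 10 of other leukocytes (21.0 to 127 CPM against 11.4 to 18.2 CPM) and 9 of 10 of stellate cells (533 to 862 CPM against 235 to 315 CPM). Of periportal markers 5 of 8 were lower and 2 higher, and of pericentral markers 5 of 9 were lower, whereas 1 of 8 of cholangiocytes, 2 of 8 of endothelial cells and 1 of the 2 tested of pancreas were higher, the last list summing to 0.521 CPM in KO liver 1, 59.5 to 105 CPM in KO livers 2 to 4 and 0.0397 to 0.333 CPM in the controls, with Cela2a the marker that passed. The hepatocyte sum was 109128 to 123343 CPM in WT Cre and 134907 to 161625 CPM in MCS livers. Of the 9 hepatocyte markers 2 were lower in KO against WT Cre and 6 against MCS. Between the controls 1 of 9 hepatocyte and 3 of 9 pericentral markers were lower in WT Cre than in MCS. No marker of the hepatocyte, macrophage, leukocyte or stellate lists was at 0 in every liver of a group. Their part in the results below was not tested. In whole-liver RNA, fewer hepatocytes and less RNA per hepatocyte cannot be told apart.

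Between KO and all 6 controls, 7 of the 9 genes were lower at an adjusted p under 0.05, against 16.6% of all genes, and no member was higher, by edgeR or by DESeq2, nor at an unadjusted p under 0.05. The largest falls were those of the phosphatase G6pc, to 30.7% of the control mean, and of the pyruvate kinase Pklr, to 35.2%. Ppargc1a, Pck1, Gys2 and Slc2a2 stood at 50.2% to 56.0% and Pcx at 67.7% of their control means. Fbp1 and Gckr did not pass. The median log2 fold change of the 9 genes was -0.89, beside -0.0030 for all genes tested and -0.35 for the 9 hepatocyte markers. That of the markers depended on the control, at -0.047 against WT Cre and -0.60 against MCS. The 9 genes had medians of -0.79 and -1.01 there. In the same 7 genes all 4 KO livers lay below all 6 controls, against 12.0% of all genes. G6pc and Pklr were also differentially expressed genes in the sense of the study (absolute log2 fold change over 1), as were 5.79% of all genes in that direction.

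**Figure D1:**
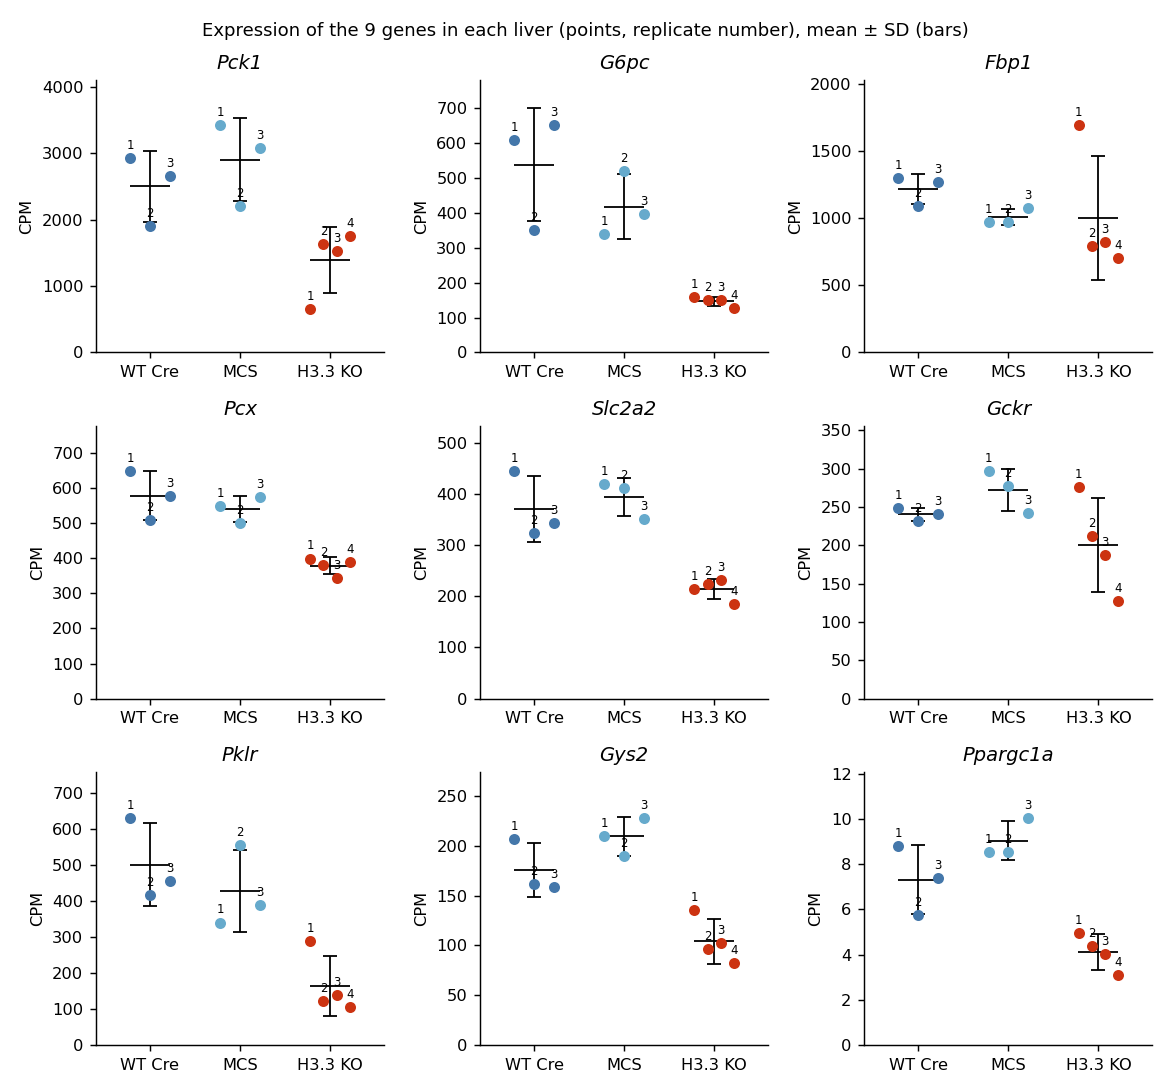
Expression of the 9 genes (y axis, CPM from 0) in each liver of the 3 groups (x axis), points with replicate numbers and bars for the mean ± SD (n = 3 WT Cre, 3 MCS, 4 H3.3 KO). In 7 panels all KO points lie under all control points, while KO liver 1 is the highest of all livers for Fbp1 at 1696 CPM and lies within the controls for Gckr at 276 CPM.

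Pck1 (ENSMUSG00000027513.11, chromosome 2 at 173153048 to 173159273, plus strand, mm10), which turns oxaloacetate into phosphoenolpyruvate, stood at 653, 1638, 1531 and 1751 CPM in KO livers 1 to 4. It stood at 2932, 1906 and 2659 CPM in the WT Cre controls and at 3421, 2202 and 3084 CPM in the MCS controls. The groups did not overlap, and KO liver 1 lay far below the other KO livers. The means were 1393 ± 502 CPM (SD, n = 4) and 2701 ± 566 CPM (SD, n = 6), a log2 fold change of -0.95 (edgeR, SE 0.257, adjusted p = 0.0118). Without KO liver 1 the log2 fold change was -0.72 (adjusted p = 0.00436).

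G6pc (ENSMUSG00000078650.2, chromosome 11 at 101367561 to 101377903, plus strand) frees glucose from glucose 6-phosphate in the last step before export. Its level was 158, 149, 151 and 127 CPM in KO livers 1 to 4, against 608, 352 and 651 CPM in the WT Cre and 338, 520 and 395 CPM in the MCS controls. The KO livers were close to each other, with a coefficient of variation of 9.05%, while the controls spread by 28.3%. The highest KO liver was below the lowest control by more than the whole range of the KO group. This gave a log2 fold change of -1.71 (edgeR, SE 0.199, adjusted p of 4.09e-05), or -1.75 when KO liver 1 was left out.

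Fbp1 (ENSMUSG00000069805.10, chromosome 13 at 62864753 to 62888282, minus strand), which removes a phosphate from fructose 1,6-bisphosphate, was at 1696, 794, 824 and 707 CPM in KO livers 1 to 4. The WT Cre controls had 1301, 1090 and 1268 CPM and the MCS controls 975, 973 and 1081 CPM. KO liver 1 was thus above all controls and KO livers 2 to 4 below all of them. Over all 4 KO livers the log2 fold change was -0.15 (edgeR, SE 0.221, adjusted p = 0.642), and scaling by library size alone turned its sign, to 0.0057. Without KO liver 1 it was -0.52 (adjusted p = 0.00415), so that the call rests on that library.

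Pcx (ENSMUSG00000024892.17, chromosome 19 at 4510472 to 4621752, plus strand), which feeds pyruvate into the pathway as oxaloacetate, was at 399, 381, 344 and 389 CPM in KO livers 1 to 4. In the WT Cre controls it was at 646, 509 and 577 CPM and in the MCS controls at 547, 500 and 573 CPM. The KO and control livers did not overlap, and the KO livers varied by a coefficient of variation of only 6.35%. On the log2 scale the KO livers fell by 0.56 (edgeR, SE 0.107, adjusted p = 0.00131). Lrfn4 overlaps Pcx on the other strand, and the strand setting of the counting was not stated.

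Slc2a2 (ENSMUSG00000027690.13, chromosome 3 at 28697903 to 28731359, plus strand), the GLUT2 transporter, was at 214, 224, 231 and 186 CPM in KO livers 1 to 4. The WT Cre livers had 444, 323 and 343 CPM and the MCS controls 419, 412 and 351 CPM. It was the only member for which KO liver 1 fell within the range of the other KO livers. Its log2 fold change was -0.84 (edgeR, SE 0.122, adjusted p = 0.000207) with all KO livers and also -0.84 without KO liver 1. The gene 1700112D23Rik overlaps it on the other strand.

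Gckr (ENSMUSG00000059434.9, chromosome 5 at 31297443 to 31327314, plus strand), the regulatory protein of hepatic glucose use, was at 276, 212, 187 and 128 CPM in KO livers 1 to 4. In WT Cre livers it was at 248, 232 and 241 CPM and in the MCS controls at 296, 278 and 243 CPM. KO liver 1 lay among the controls and KO livers 2 to 4 below all of them, with KO liver 4 at 49.9% of their mean. Its log2 fold change came to -0.35 (edgeR, SE 0.171, adjusted p = 0.126) over all 4 and -0.54 (adjusted p = 0.00967) without KO liver 1.

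Pklr (ENSMUSG00000041237.12, chromosome 3 at 89136142 to 89146784, plus strand), the pyruvate kinase of liver and red blood cells, was at 287, 122, 139 and 105 CPM in KO livers 1 to 4. The WT Cre controls had 631, 416 and 454 CPM and the MCS controls 340, 555 and 388 CPM. All KO livers were below all controls, and KO liver 1 was 2.36 times the mean of the other 3. Pklr had a log2 fold change of -1.51 (edgeR, SE 0.291, adjusted p = 0.00212) and reached -1.93 without KO liver 1. Markers of red blood cells, which also use this gene, summed to 52.3 to 219 CPM in KO and 125 to 324 CPM in the controls. None of the 5 passed the test in either direction (edgeR, and also none at an unadjusted p under 0.05), with a median log2 fold change of -0.80. The sums were 219, 193, 52.3 and 72.4 CPM in KO livers 1 to 4. Without KO liver 1, Alas2 was lower (-1.97, edgeR adjusted p = 0.00338) and the other 4 did not pass. The part of red blood cells in the Pklr values was not tested. Hcn3 overlaps Pklr on the other strand.

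Gys2 (ENSMUSG00000030244.7, chromosome 6 at 142422613 to 142473109, minus strand), the glycogen synthase of liver, was at 136, 96.8, 102 and 82.5 CPM in KO livers 1 to 4. Control levels were 207, 162 and 158 CPM for WT Cre and 210, 190 and 229 CPM for MCS. The groups did not overlap. Gys2 had a log2 fold change of -0.89 (edgeR, SE 0.152, adjusted p = 0.00063) and -1.04 without KO liver 1.

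Ppargc1a (ENSMUSG00000029167.13, chromosome 5 at 51454250 to 51567726, minus strand), the coactivator, was by far the least abundant member, at 4.95, 4.39, 4.00 and 3.10 CPM in KO livers 1 to 4, from 76 to 111 counts a library. The WT Cre livers had 8.80, 5.77 and 7.38 CPM and the MCS controls 8.55, 8.53 and 10.1 CPM, from 133 to 211 counts. The groups were apart, though WT Cre control 2 came close to KO liver 1. Its log2 fold change was -0.997 (edgeR, SE 0.177, adjusted p = 0.000802). Of the genes that overlap it, 3 lie on the same strand, so that some reads may belong to them.

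**Figure D2:**
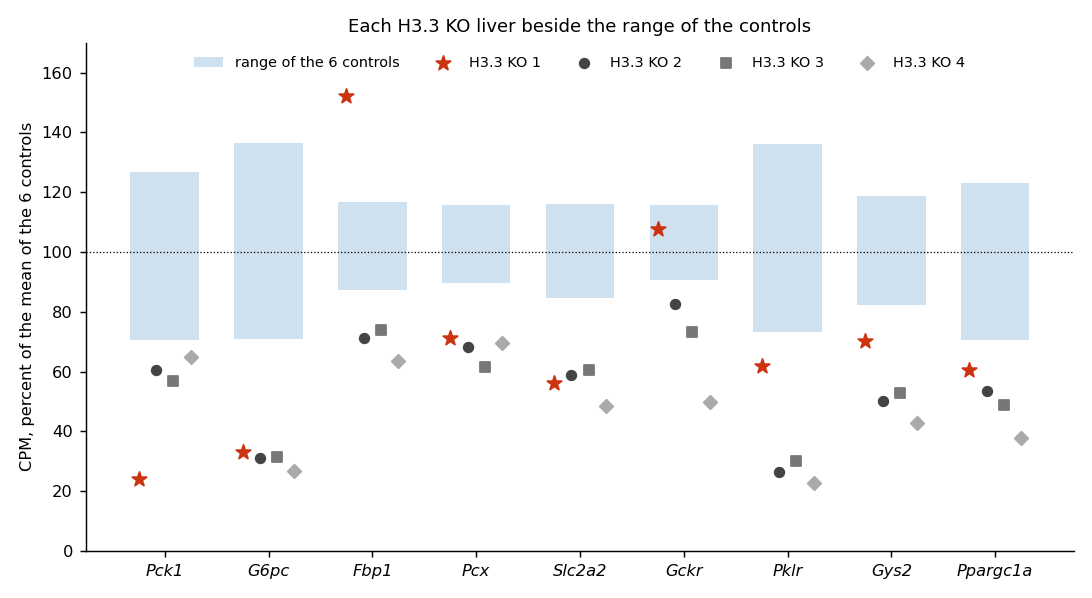
Level of each gene (x axis) in each of the 4 H3.3 KO livers as percent of the mean of the 6 controls (y axis), with the range of the controls as a shaded box and KO liver 1 as a red star. KO liver 1 is at 152% for Fbp1 and 108% for Gckr but at 24.2% for Pck1, below the 56.7% to 64.8% of the other KO livers.

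H3.3 KO liver 1 did not follow the other KO livers for these genes. It was above all of KO livers 2 to 4 for 7 members, below all of them for Pck1, and within their range for Slc2a2. The distance was largest for Pklr and Fbp1, at 2.36 and 2.19 times the mean of the other 3, and for Pck1, at 0.398 times. This liver had the lowest depth, the lowest summed level of macrophage markers in the KO group (531 CPM against 830 to 1172 CPM) and the lowest of other leukocytes (21.0 CPM against 100 to 127 CPM). It was also the lowest KO liver in markers of pancreas (0.521 CPM against 59.5 to 105 CPM) and of stellate cells (533 CPM against 592 to 862 CPM), and the highest in those of hepatocytes (99749 CPM against 86115 to 96972 CPM). Its H3f3a level (16.03 CPM) lay within and its H3f3b level (39.8 CPM) below the range of the other KO livers. The part of these differences in its glucose genes was not tested. With KO livers 2 to 4 alone, all 9 genes were lower than the 6 controls at an adjusted p under 0.05, where 18.9% of all genes were. All 9 were below every control in each of the 3 livers, where 18.2% of all genes were. KO liver 1 was set aside after these values had been seen, and it was not below the controls for Fbp1 and Gckr. The counts without it therefore describe the other 3 livers and are no separate test.

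The 4 KO livers were next set against each kind of control, which asks whether the virus with Cre or the floxed alleles alone could give the same difference. The match of control columns to the WT Cre and MCS mice rests on the library numbers, so the values for one kind of control depend on it. Against the WT Cre controls 6 members were lower, where 13.1% of all genes were, and against the MCS controls 7 were, where 14.8% of all genes were. Pck1 made the difference between these counts, with a log2 fold change of -0.84 (edgeR, SE 0.303, adjusted p = 0.061) against WT Cre and -1.06 (SE 0.304, adjusted p = 0.0223) against MCS. That call for Pck1 against MCS was lost without MCS control 1 (adjusted p = 0.0793) or 3 (0.0601) and gained against WT Cre without KO liver 1 (adjusted p = 0.0205). G6pc had -1.88 and -1.51, and Pklr -1.62 and -1.39 (all adjusted p at most 0.0117). Ppargc1a had -0.84 and -1.14, Gys2 -0.75 and -1.01, Slc2a2 -0.79 and -0.88, and Pcx -0.61 and -0.51, each lower in both. Fbp1 had -0.28 and -0.0066 and Gckr -0.26 and -0.44, and neither passed in either comparison. Both comparisons share the KO livers. Without KO liver 1 all 9 members were lower against each kind of control, where 17.4% and 18.7% of all genes were.

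Between the controls none of the 9 genes passed with edgeR or DESeq2, nor at an unadjusted p under 0.05, where 0.927% of all genes were called with edgeR. The log2 fold changes of WT Cre against MCS ran from -0.30 for Ppargc1a (edgeR, SE 0.199, adjusted p = 0.665) to 0.36 for G6pc (SE 0.218, adjusted p = 0.616). For Fbp1 all WT Cre livers lay above all MCS livers, with a log2 fold change of 0.27 (SE 0.278, adjusted p = 0.82).

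**Figure D3:**
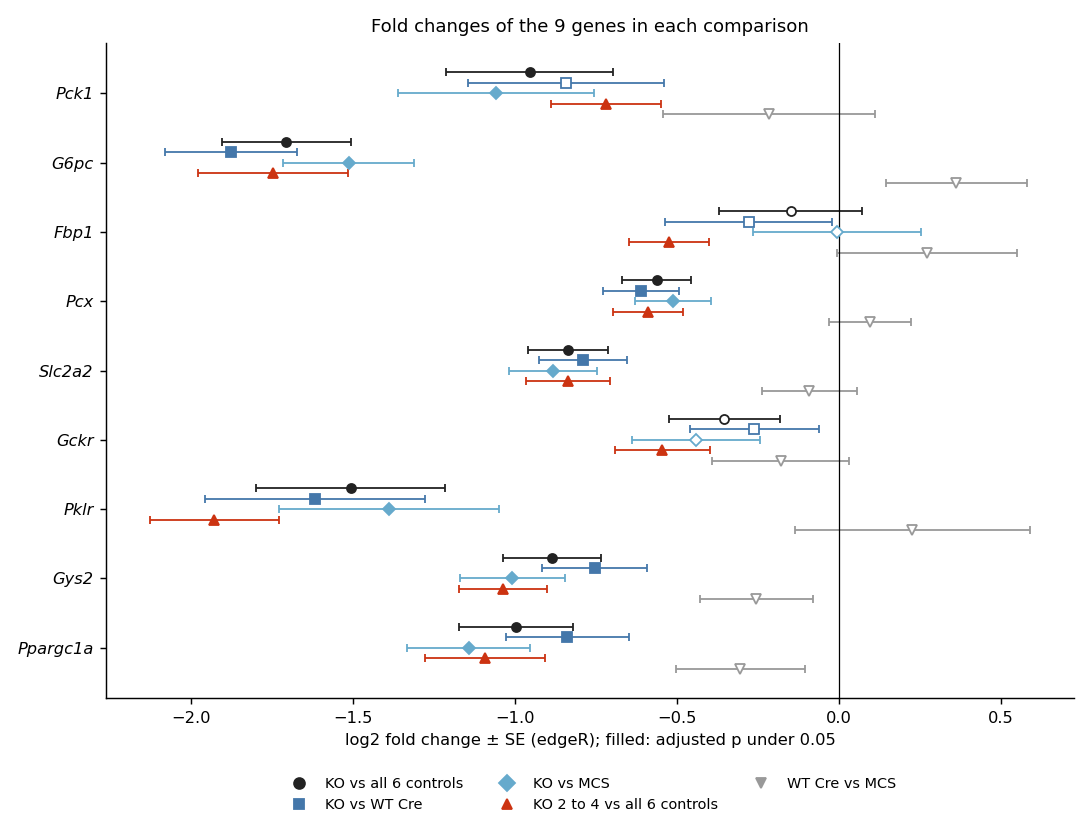
The log2 fold change of each gene (y axis) with its SE (x axis, edgeR) for KO against all controls, WT Cre and MCS, for KO livers 2 to 4 against all controls and for WT Cre against MCS. Filled symbols had an adjusted p under 0.05. All 9 triangles of KO livers 2 to 4 are filled, from -1.93 for Pklr to -0.52 for Fbp1, and no symbol of the comparison between controls is.

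Levels were compared between genes as CPM per kilobase of exon, so that long transcripts do not count as more abundant. In the controls Pck1 was first at 788 ± 165 (SD, n = 6) and Fbp1 next at 655 ± 82.8, and their ranges overlapped. G6pc followed at 198 ± 55.9, Pklr at 143 ± 33.8 and Pcx at 118 ± 11.2. Gys2, Slc2a2 and Gckr came to 72.5 ± 10.6, 66.4 ± 8.55 and 59.1 ± 5.78, each overlapping its neighbour, and Ppargc1a to 1.24 ± 0.221. The ranges of G6pc and Pklr and those of Pklr and Pcx overlapped too, while Fbp1 and G6pc, Pcx and Gys2, and Gckr and Ppargc1a were separate.

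In KO the order on the same scale was Fbp1 at 591 ± 272 (SD, n = 4), Pck1 at 406 ± 146, Pcx at 79.6 ± 5.06, G6pc at 60.6 ± 5.49, Pklr at 50.5 ± 25.9, Gckr at 46.3 ± 14.1, Gys2 at 39.2 ± 8.44, Slc2a2 at 37.2 ± 3.49 and Ppargc1a at 0.624 ± 0.118. Pcx moved ahead of G6pc and Pklr, and its range was separate from that of G6pc. Pck1 and Pcx, and Slc2a2 and Ppargc1a, were separate as well, while each neighbour pair from G6pc down to Slc2a2 overlapped. Fbp1 and Pck1 overlapped, with Fbp1 above Pck1 in 2 of 4 KO livers against 1 of 6 controls.

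Some enzymes of the group have partners in other tissues or compartments, and these were set beside the members. Pck2, the mitochondrial carboxykinase, was at 6.06 to 8.26 CPM in KO against 2.85 to 5.03 CPM in the controls (log2 fold change of 0.94, edgeR SE 0.163, adjusted p = 0.000708). G6pc3, the phosphatase found in all tissues, had a log2 fold change of 0.45 (adjusted p = 0.0239, or 0.0627 without KO liver 3). Slc37a4, the transporter that brings glucose 6-phosphate to G6pc, had -0.56 (adjusted p = 0.0977, but -0.76 and 0.0342 without KO liver 1). Without that liver Slc37a4 had -0.42 against WT Cre (edgeR adjusted p = 0.128) and -1.04 against MCS (adjusted p = 0.00202). Fbp2, the muscle bisphosphatase, was at 2.80 to 6.73 CPM in KO, whereas the controls had 0.0407 to 0.318 CPM from 1 to 8 counts a library. Its fitted log2 fold change of 5.21 (SE 0.416, adjusted p of 2.48e-06) leans on those few counts and was 5.88 without WT Cre control 3. Of 5 muscle markers 3 were higher (Acta1, Ckm and Pygm), the 5 summed to 6.69 to 10.8 CPM in KO and 4.69 to 8.30 CPM in the controls, and their part in the Fbp2 value was not tested.

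Pkm and a pair of hexokinases rose while Pklr fell. Pkm, the pyruvate kinase of most other tissues, rose from 11.4 to 17.4 CPM in the controls to 37.6, 63.2, 55.3 and 82.0 CPM in KO livers 1 to 4 (log2 fold change of 2.05, edgeR SE 0.181, adjusted p of 8.35e-06). Hk2 and Hk3, hexokinases that are low in hepatocytes, rose with log2 fold changes of 2.32 and 1.96 (adjusted p of 3.61e-06 and 0.000171). Hk1, of the same kind, was at 4.24, 6.96, 6.49 and 8.87 CPM in KO livers 1 to 4 against 3.22 to 4.30 CPM in the controls. KO liver 1 thus lay within the controls for Hk1. Without that liver, left out after the data had been seen, the log2 fold change of Hk1 was 0.99 (edgeR adjusted p = 0.000159). Hkdc1 did not pass there (0.90, edgeR adjusted p = 0.115). Hk3 and Pkm are also expressed in leukocytes, whose markers rose in the same livers as given above, as did those of stellate cells. The part of such cells in these rises, and in the ratio of Pkm to Pklr below, was not tested. In whole-liver RNA it cannot be told apart from a change within hepatocytes.

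Isoform balance was then tested as the ratio of counts per kilobase in each liver, by two-sided exact permutation over the 210 splits of 4 against 6 livers, whose smallest p is 0.00476, with adjustment over 4 planned ratios, of which 3 are given. Pkm stood at 8.46%, 33.6%, 25.8% and 50.4% of Pklr in KO livers 1 to 4 and at 1.50% to 2.91% in the controls (12.2-fold difference of the geometric means, exact p = 0.00476, adjusted p = 0.00635). Pck2 stood at 0.189% to 0.407% of Pck1 against 0.0405% to 0.116% (3.94-fold, exact p = 0.00476, adjusted p = 0.00635). All KO livers were above all controls for both of these ratios.

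Gys1, the glycogen synthase of muscle, stood at 1.04%, 1.70%, 1.81% and 1.62% of Gys2 in KO livers 1 to 4 and at 0.529% to 1.07% in the controls (2.02-fold, exact p = 0.00952, adjusted p = 0.00952). Here KO liver 1 lay below WT Cre control 3. Gys1 itself was at 2.41 to 3.33 CPM in KO and 2.14 to 3.06 CPM in the controls (log2 fold change of 0.12, edgeR SE 0.172, adjusted p = 0.637). In KO livers the liver isoform remained the more abundant for all 3 pairs. The ratios are built from the same counts as the gene tests above and are not independent of them.

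**Figure D4:**
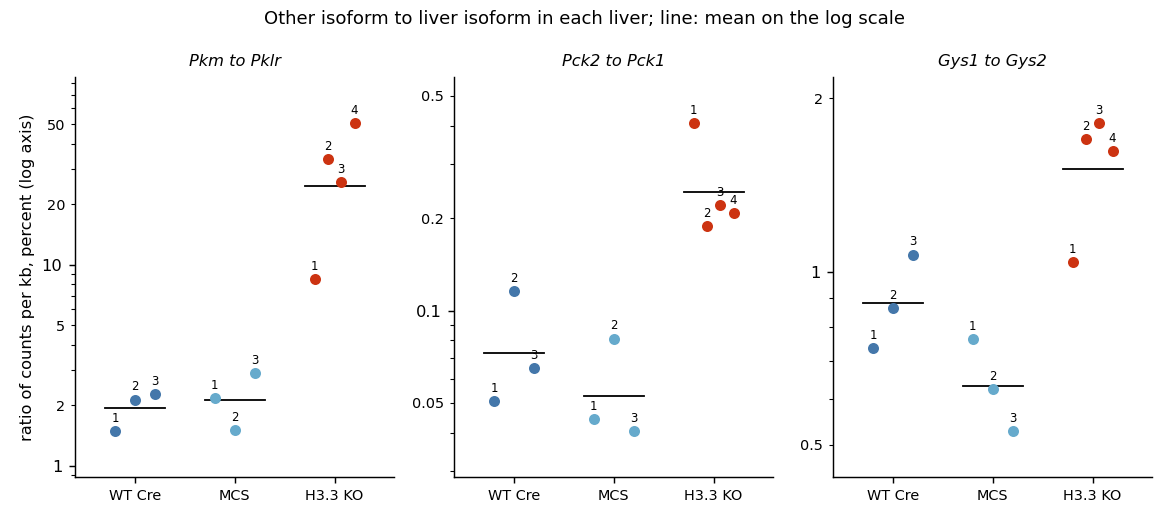
Ratio of the other isoform to the liver isoform in counts per kilobase, in percent on log axes, in each liver of the 3 groups (points with replicate numbers, lines at the mean on the log scale). The KO points lie above all control points for Pkm to Pklr and Pck2 to Pck1, and KO liver 1 is the lowest KO liver for Pkm to Pklr at 8.46% and the highest for Pck2 to Pck1 at 0.407%.

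The wider gluconeogenic list held 16 genes, 5 of them members, and 7 were lower, 4 higher and 5 did not pass, with a median log2 fold change of -0.41. All genes tested had 16.6% lower and 19.7% higher, against which this count and those of the lists below are to be read, and no list was tested as a set. Besides the members, the aspartate-glutamate carrier Slc25a13 and the citrate carrier Slc25a1 fell, with log2 fold changes of -0.83 (edgeR adjusted p of 7.27e-05) and -0.58 (adjusted p = 0.00548). Of 14 genes that bring lactate, amino acids and glycerol into the pathway, 4 were lower, 1 was higher and 9 did not pass. Sds, which turns serine into pyruvate, was at 54.2 to 73.6 CPM in KO, 137 to 178 CPM in WT Cre and 291 to 347 CPM in MCS livers (log2 fold change of -1.94, SE 0.304, adjusted p = 0.000658). The mitochondrial glycerol phosphate dehydrogenase Gpd2 rose (log2 fold change of 1.02, adjusted p = 0.000987) and the monocarboxylate transporter Slc16a7 fell (-0.83, adjusted p = 0.00545).

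Among 24 regulators of gluconeogenesis, Ppargc1a included, 8 were lower, 4 higher and 12 did not pass, beside 16.6% lower and 19.7% higher of all genes. The salt-inducible kinase Sik1, which restrains the cAMP response, was at 27.7, 99.5, 126 and 235 CPM in KO livers 1 to 4 against 9.29 to 28.1 CPM in the controls (log2 fold change of 2.84, edgeR SE 0.558, adjusted p = 0.00401). The orphan receptor Nr4a1 rose with 1.90 (adjusted p = 0.00999), a call that the replicate block ended (1.61, adjusted p = 0.091). Among the other regulators the glucagon receptor Gcgr fell (-0.65, adjusted p = 0.00392) and the kinase subunit Prkaca rose (0.45, adjusted p = 0.0102). Hnf4a (-0.55, adjusted p = 0.0763, but -0.84 and 0.0048 without KO liver 4 and -0.83 and 0.00599 with the replicate block) and Foxo1 (-0.22, adjusted p = 0.443) did not pass. Mlxipl, the glucose sensor ChREBP that acts on Pklr, did not pass either, at -0.08 (adjusted p = 0.766). Its sign turned without KO liver 4, to a log2 fold change of 0.064 (edgeR adjusted p = 0.787). None of the 9 genes of fructose use and ChREBP passed with edgeR, with 2 at an unadjusted p under 0.05 and 1 called by DESeq2, all of them lower.

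**Figure D5:**
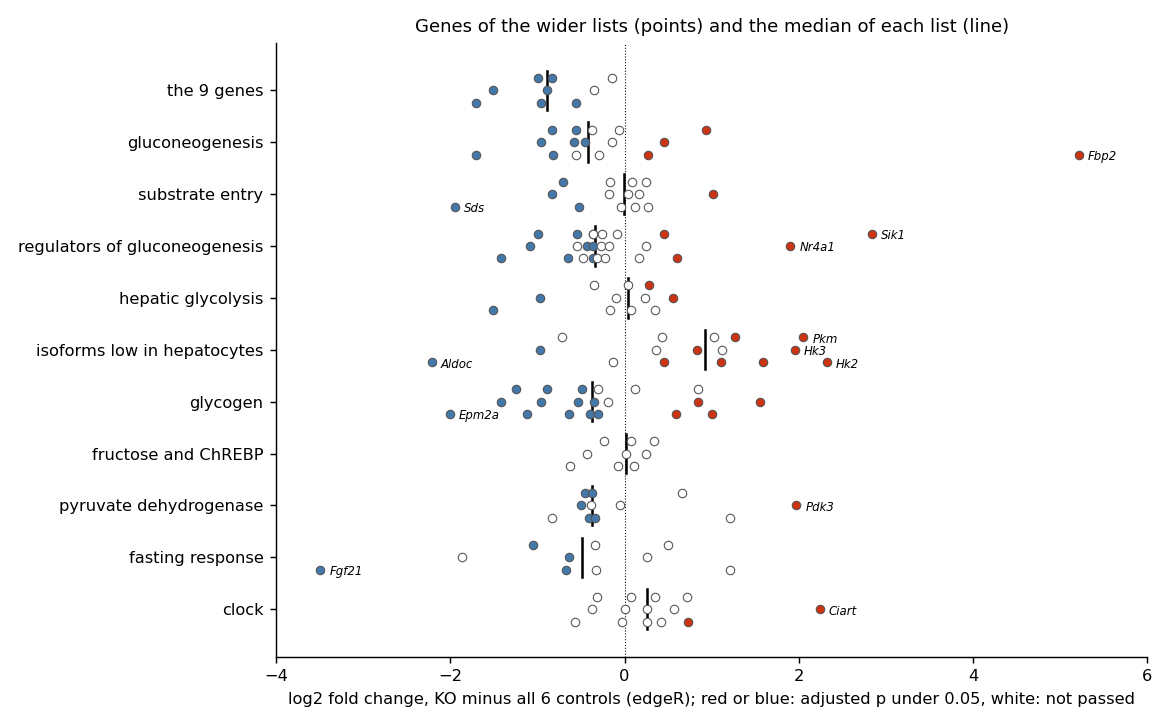
The log2 fold change of KO minus all 6 controls (x axis, edgeR) for each gene of the 9 members and of 10 wider lists (y axis), red or blue where the adjusted p was under 0.05, white where it was not, with a line at each list's median. The members' line is at -0.89 and that of the isoforms low in hepatocytes at 0.93.

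Of 20 glycogen genes, Gys2 among them, 12 were lower, 4 were higher and 4 did not pass, beside 16.6% lower and 19.7% higher of all genes. The subunits that bring protein phosphatase 1 to glycogen went both ways, as Ppp1r3b fell with a log2 fold change of -1.42 (edgeR, SE 0.189, adjusted p = 0.000104) and Ppp1r3d, at under 1 CPM in all livers, rose with 1.55 (adjusted p = 0.0031). Epm2a, the glycogen phosphatase laforin, fell from 4.81 to 8.26 CPM in the controls to 1.34 to 3.00 CPM (log2 fold change of -2.002, adjusted p of 7.06e-05). The liver phosphorylase Pygl, which breaks glycogen down, had -0.35 (adjusted p = 0.0383), and KO liver 1 overlapped the controls there. The Pygl call was lost when any one of KO livers 2, 3 and 4, WT Cre controls 1 and 3 or MCS controls 2 and 3 was left out (adjusted p of 0.0608 to 0.135). It was also lost with RLE (0.0578), library size alone (log2 fold change of -0.18, adjusted p = 0.235), both FPKM scales (0.206 and 0.202) and the replicate block (0.131).

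Of 11 genes of hepatic glycolysis, Pklr among them, 2 were lower, 2 higher and 7 did not pass. Tpi1, the triose phosphate isomerase, was at 473 to 618 CPM in KO and 331 to 377 CPM in the controls (log2 fold change of 0.55, edgeR SE 0.102, adjusted p = 0.00106). Pfkfb1, the liver enzyme that sets the level of fructose 2,6-bisphosphate, had -0.97 (edgeR adjusted p = 0.0205, but 0.0504 without KO liver 2, 0.0671 without KO liver 4, 0.0503 with no filter, 0.0501 on log2(FPKM + 1) and 0.123 with the replicate block). Of 16 isoforms that are low in hepatocytes, 8 were higher, 2 lower and 6 did not pass, with a median log2 fold change of 0.93. Aldoc fell among them, from 5.28 to 12.05 CPM in the controls to 1.65 to 2.74 CPM (log2 fold change of -2.21, adjusted p of 2.57e-05). Of 11 genes of the pyruvate dehydrogenase complex and its kinases, which decide whether pyruvate is burned or goes to Pcx, 5 were lower and 1 higher, beside 16.6% and 19.7% of all genes. Dld (-0.45, adjusted p = 0.00574) and the kinase Pdk2 (-0.50, adjusted p = 0.0342) fell and Pdk3 rose (1.97, adjusted p = 0.000392), the last from 0.179 to 0.375 CPM to 0.586 to 1.46 CPM. The Pdk2 call was kept only without KO liver 1 or WT Cre controls 2 or 3 and lost without any other single liver (adjusted p of 0.0516 to 0.0931). With library size alone and on both FPKM scales neither Pdk2 (adjusted p of 0.113, 0.157 and 0.154) nor Dld (0.0533, 0.0661 and 0.0649) passed, and the replicate block ended the Pdk2 call too (0.0875).

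Genes known to follow feeding and time of day were read beside the members, since Pck1, G6pc and Ppargc1a follow both. Of 10 fasting-responsive genes 4 were lower and 6 did not pass, and none was higher with edgeR, with 1 at an unadjusted p under 0.05 and 1 called by DESeq2. Fgf21, a fasting hormone of the liver, was at 0.153 to 1.56 CPM in KO and 1.51 to 10.3 CPM in the controls (log2 fold change of -3.49, edgeR SE 0.721, adjusted p = 0.0041, and -4.46 without KO liver 1). The tyrosine aminotransferase Tat (-1.05, adjusted p = 0.0231) and the carnitine transferase Cpt1a (-0.68, adjusted p = 0.00042) fell, with Tat lost without KO liver 1, 2 or 3 (adjusted p of 0.064, 0.0507 and 0.0572), with no filter (0.0755), on both FPKM scales (0.0547 and 0.0542) and with the replicate block (0.0516). Of 14 clock genes 2 were higher, Ciart (2.24, adjusted p = 0.0215) and Cry2 (0.72, adjusted p = 0.0273), and 12 did not pass, with none lower by edgeR or DESeq2 and 2 lower at an unadjusted p under 0.05. The Ciart call was lost without KO liver 2 (adjusted p = 0.0504) and with the replicate block (0.0845). That of Cry2 was lost without KO liver 4, WT Cre control 2 or 3, or MCS control 2 (adjusted p of 0.053 to 0.0731), with no filter (0.0658) and with the block (0.0512). Ciart was at 1.03 to 14.9 CPM in the controls and 18.1 to 34.2 CPM in KO. The part of feeding or of the hour in the members' differences was not tested.

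Left out after the data had been seen, KO liver 1 changed the counts of the wider lists in part. Of 22192 genes tested without that liver, 9077 passed in either direction, and 18.9% of all tested were lower. The counts of this paragraph are to be read beside these. Without KO liver 1, 11 genes of the gluconeogenic list were lower and 3 higher, and 7 of the pyruvate dehydrogenase list were lower and 2 higher. Of hepatic glycolysis 4 were lower and 1 higher, and 3 of fructose use and ChREBP were lower. The glycogen list kept its counts of 12 lower and 4 higher, and the isoforms low in hepatocytes had 9 higher and 2 lower. Substrate entry had 5 lower and 1 higher, the regulators 7 lower and 4 higher, the fasting list 3 lower and the clock list 3 higher.

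Among 9707 genes with a mean of at least 5 CPM, those whose log2 levels ran closest to G6pc over the 10 livers were Dapk1, Prps2 and Gm13340, with Pearson's r of 0.974, 0.970 and 0.970. Closest to Slc2a2 were Firre, Ido2 and Psmd3, at 0.984, 0.978 and 0.974. Both sets carry the difference between KO and controls, which all 10 points share, so the values describe likeness and no p is given.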

How the data were processed

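The authors sequenced poly(A) RNA of 10 livers, aligned reads with STAR to mm10 and counted them per gene with HOMER. Submitters' notes also name HTSeq and Cufflinks. The deposited table holds raw counts, and a second deposited table holds FPKM values, which served only as an alternative and had 268042 blank cells, read as 0, none of them of a member. The library kit was directional, whereas how strand and reads with several matches were treated is not given in the sources used here, so overlapping genes are uncertain. KO columns were matched to samples by the replicate numbers of the titles, and control columns by the library numbers (1 to 3 WT Cre, 4 to 6 MCS). The comparison of KO with all 6 controls is free of that match.

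Genes with at least 10 counts in all, 22449 of 33924 with any count, were tested in edgeR 4.0.16 (R 4.3.3) by its quasi-likelihood method (TMM, robust, two-sided), with Benjamini-Hochberg adjustment over all of them. KO against all controls was fitted with 2 groups and the other comparisons with 3. SE is the absolute log2 fold change over the square root of F. CPM were scaled by TMM, whose factors ran from 0.858 to 1.11, and lengths are exon unions of GENCODE M21. Isoform ratios were compared by exact permutation. The edgeR p-values set the difference between groups against the spread between mice within groups. An exact p is the share of splits with a difference at least as large as the one observed. Alternatives were DESeq2 1.42.0, other scalings and filters, limma 3.58.1 on log2(FPKM + 1) and log2(FPKM + 0.1), a replicate block, other samples in the fit and leaving out each liver. Code was tested on simulated counts. Named genes were all members, 10 fixed partners, the 3 largest log2 fold changes among genes passing in each wider list, the 3 genes closest to each of the 2 members with the lowest adjusted p, and the targets. Slc25a1, Slc25a13, Gcgr and Prkaca were chosen after their values were seen. Hk1, Hk3 and Hkdc1 also lie outside this naming rule. Members and lists were chosen with earlier results of these data known. One planned gene and the ratio built on it are not reported here, though that ratio counts in the adjustment. Markers of periportal and pericentral hepatocytes, cholangiocytes, endothelial cells and pancreas were also read.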

Additional observations from a re-analysis of the deposited data

Results flagged for a closer look

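Among 44 groups of 4 or more livers, 2 had an extreme value by Dixon's criterion, which chance gives in about 1 of 20. Fbp1 in H3.3 KO liver 1, at 1696 CPM, stood far above the other KO livers. Fbp2 in WT Cre control 3, at 0.318 CPM from 8 counts, stood far above the other controls. The effect of KO depended on the kind of control for 2 of the named genes, where WT Cre differed from MCS at an adjusted p under 0.05 (edgeR). Foxo1 had a log2 fold change of -0.78 between WT Cre and MCS (adjusted p = 0.0127), with 0.22 for KO against WT Cre and -0.56 against MCS, and lay lower in 3 of 3 WT Cre livers. Sds had -1.09 between the controls (adjusted p = 0.0044) and was lower in KO than in either, also lower in 3 of 3 WT Cre livers than in all MCS livers.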

How the results depend on the processing

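Against all controls 7 members were called under each alternative, except 9 without H3.3 KO liver 1. Leaving out 1 liver gave 7 to 9 calls against all controls, 6 to 9 against WT Cre and 6 to 9 against MCS, the upper end always without KO liver 1. Against WT Cre DESeq2 gave 7, through Pck1 (adjusted p = 0.028). Against MCS no filter gave 6 and library size alone, log2(FPKM + 1) and log2(FPKM + 0.1) gave 5, where Pck1 (adjusted p of 0.0903, 0.0902, 0.0974 and 0.0932) and, in the last 3, Pcx (0.0816, 0.0975 and 0.0943) were lost. Of 594 alternative values of member fold changes, 559 kept direction and side of the threshold, 17 reversed, 8 gained and 10 lost the call. Reversals were limited to Fbp1 and Slc2a2, in comparisons without a call. Fbp1 for KO against all controls became 0.0057 with library size alone. Against MCS Fbp1 was -0.0066 and became 0.019 with DESeq2 and with RLE, 0.23 with library size alone, 0.011 with filterByExpr, 0.0095 with no filter, 0.18 with either FPKM scale, 0.057 with the replicate block and 0.0066 with other samples in the fit, and -0.38 to 0.14 when a liver was left out. Slc2a2 for WT Cre against MCS (-0.09) became 0.039 with library size alone and 0.11 with either FPKM scale. Mlxipl (-0.08) became 0.11, 0.14, 0.14 and 0.068 with library size alone, the 2 FPKM scales and the replicate block, and ran from -0.20 to 0.064 when a liver was left out. Foxo1 (-0.22) became 0.0066 and 0.012 with log2(FPKM + 1) and log2(FPKM + 0.1). The cause was not tested. Against one kind of control the exact test of isoform ratios has 35 splits and a smallest p of 0.0286 before adjustment. Against WT Cre alone the log2 differences were 3.67 for Pkm to Pklr (adjusted p = 0.0571, exact permutation), 1.75 for Pck2 to Pck1 (0.0571) and 0.78 for Gys1 to Gys2 (0.0857), and against MCS alone Pkm to Pklr had 3.54 (0.0571), while the other 2 ratios given kept their call there. With library size alone the middle of all fold changes shifted by 0.175 (log2) and the share of calls that were higher went from 54.3% to 72.2%. The replicate block gave 7, 6 and 6 members against all controls, WT Cre and MCS, with Pck1 lost against MCS (adjusted p = 0.0677), and 6311 genes in place of 8155. Calls of other named genes that it changed are given beside their values. Whether replicate numbers pair the livers was not settled. Of 9 same-number pairs 4 had deviations correlated above 0.1 (r of -0.167 to 0.212), and pairs of different number had r of -0.283 to 0.344. Between WT Cre and MCS livers, same-number pairs had 0.143, 0.154 and 0.0881, and the others -0.153 to 0.0109. Same-number pairs with a KO liver ran from -0.167 to 0.212. With 76 to 211 counts a library, Ppargc1a has the coarsest counting error of the members.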
